A study of Mus musculus with 4 samples.

Results

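Bone morphogenetic protein (BMP) signals and genes of the mesenchymal niche were followed in 4 RNA-seq libraries of mouse intestine. The set was a list of 9 gene names, looked up by symbol in the transcript tables. Of these, 7 genes with 24 transcripts were read, out of 55203 genes in all: the ligands Bmp2, Bmp4, Bmp5 and Bmp7, the antagonists Grem1 and Chrdl1, and the receptor gene Pdgfra. The other 2, the forkhead transcription factor genes Foxf1 and Foxl1, were not analysed here. The tissue came from adult male wild-type C57BL/6NTac mice aged 8 to 12 weeks and kept free of specific pathogens. The label of libraries RVC 1 and 2 gave ribonucleoside vanadyl complex (RVC), which inhibits ribonucleases, at 4 mM, and that of libraries fresh frozen 1 and 2 gave fresh freezing. The protocol text was the same for all 4 and describes rinsing with RVC, so the handling of the frozen tissue is known from its label alone. The libraries were made to accompany MERFISH imaging of transcripts in tissue sections, and no question was given for RVC against freezing. Whether the 4 samples came from separate animals was not given, so the p-values below measure the spread between these samples only, and each carried its own batch number, so that batch and group cannot be told apart.

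BMPs are secreted dimers that bind paired type I and type II serine/threonine kinase receptors, which phosphorylate SMAD1 and SMAD5 and, with SMAD4, switch on targets such as the Id genes. In the intestine BMP activity is low around the stem cells at the crypt base and high towards the surface, where it favours differentiation. Cells of the stroma beneath the epithelium, marked by the PDGF receptor alpha, supply BMP ligands near the surface, and stromal and muscle cells near the crypt base secrete antagonists such as gremlin 1, which hold ligands away from their receptors.

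Bmp2, the most abundant member ligand, and Grem1, the more abundant member antagonist, had a single annotated form each, and Bmp4 is shown because its reads were divided between transcripts. The 250 bases before the start of the main transcript of each are printed 5′ to 3′ on the gene's strand (GRCm39). Capitals mark the GC box letters CCGCCC and the letters GGCGCC found in BMP response elements, each searched on both strands. The positions are chr2:133393829-133394078 on the plus strand for Bmp2, chr14:46628127-46628376 on the minus strand for Bmp4 and chr2:113588992-113589241 on the minus strand for Grem1.
Bmp2: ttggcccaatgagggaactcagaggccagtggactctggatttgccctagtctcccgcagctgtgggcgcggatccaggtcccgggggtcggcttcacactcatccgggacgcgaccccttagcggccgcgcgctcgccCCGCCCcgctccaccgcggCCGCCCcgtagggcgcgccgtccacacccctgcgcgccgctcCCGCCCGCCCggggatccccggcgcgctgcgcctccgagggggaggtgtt
Bmp4: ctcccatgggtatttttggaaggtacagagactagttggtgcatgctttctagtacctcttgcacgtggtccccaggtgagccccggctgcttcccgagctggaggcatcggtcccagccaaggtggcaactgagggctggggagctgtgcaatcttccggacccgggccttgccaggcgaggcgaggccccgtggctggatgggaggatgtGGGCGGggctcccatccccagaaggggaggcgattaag
Grem1: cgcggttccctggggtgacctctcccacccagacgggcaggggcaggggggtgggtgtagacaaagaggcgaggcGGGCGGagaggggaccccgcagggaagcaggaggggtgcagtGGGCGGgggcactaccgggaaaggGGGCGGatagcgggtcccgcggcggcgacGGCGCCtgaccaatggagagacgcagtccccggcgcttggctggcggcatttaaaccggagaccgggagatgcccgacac
Bmp2 held 4 GC box matches, Grem1 3 and Bmp4 1, and 50.3% of the 13732 windows of tested genes held at least 1. The Bmp2 matches at 50 and 46 bases before the start overlapped and are marked as a single stretch. GGCGCC was found once, in Grem1, without overlap with a GC box, and in 14.6% of all windows. GC content was 74.8% for Bmp2, 71.6% for Grem1, 70.8% for Bmp7 and 63.2% for Bmp4. It was 57.6% for Chrdl1, 49.2% for Pdgfra and 43.2% for Bmp5, beside a median of 57.6% over all windows. The TATA box letters TATAAA and the GLI site letters GACCACCCA were absent from the windows of the 7 members and were found in 8.90% and 0.160% of all windows. These matches describe the letters only.

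All levels below are in FPKM, fragments scaled to transcript length and to library size, summed over the transcripts of a gene, which allows comparison between genes. Fragment numbers were unknown. Values in a series of 4 are given for RVC 1, RVC 2, fresh frozen 1 and fresh frozen 2, in that order. The ratio of coverage to FPKM, which follows depth, lay between 72.6% and 100% of the deepest library, fresh frozen 2. The sample labels named ileum whereas the protocol named distal colon, and the summed level of 5 colon genes ranged from 2344 to 2990 FPKM, against 5.14 to 7.03 for 5 ileum genes, of which Fgf15, Apoa4 and Defa22 were listed at 0 in every library.

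The ligand Bmp2 was the most abundant member in each library. Bmp2 (ENSMUSG00000027358, chromosome 2, 133394079 to 133404805, GRCm39) encodes a BMP known to be made by differentiated colonic epithelium as well as stroma. It stood at 32.5 and 27.7 FPKM with RVC, against 26.5 and 21.1 FPKM when fresh frozen. Its mean was 26.9 ± 4.69 FPKM (SD, n = 4). The lowest RVC library lay above the highest fresh-frozen one, although the confidence bounds in the files overlapped for these libraries, at 26.6 to 28.8 in RVC 2 and 25.4 to 27.6 in fresh frozen 1. Fresh frozen 2 lay lowest, with bounds of 20.2 to 21.9.

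Bmp4 (ENSMUSG00000021835, chromosome 14, 46620977 to 46628126), a ligand closely related to BMP2 and typical of intestinal mesenchyme, measured 5.40 and 4.24 FPKM with RVC, against 2.95 and 4.05 FPKM when fresh frozen. The groups did not overlap, but RVC 2 and fresh frozen 2 were close to each other. Its mean of 4.16 ± 1.00 FPKM (SD, n = 4) was below that of Bmp2 in every library, with Bmp2 between 5.20 and 8.98 times as high. Bmp5 (ENSMUSG00000032179, chromosome 9, 75682646 to 75807592), a ligand of the BMP5, BMP6 and BMP7 subgroup, measured 1.46, 1.83, 1.56 and 2.00 FPKM. The groups overlapped, and its highest library was 1.38 times its lowest. Bmp7 (ENSMUSG00000008999, chromosome 2, 172709805 to 172782114), of the same subgroup, was the lowest member, at 0.124, 0.201, 0.115 and 0.220 FPKM. Bmp5 stood at 9.11 to 13.6 times Bmp7 within a library.

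Of the antagonists, Grem1 was the higher in every library. Grem1 (ENSMUSG00000074934, chromosome 2, 113576509 to 113588991) encodes gremlin 1, a secreted protein that binds BMP2, BMP4 and BMP7. It measured 5.27 and 7.02 FPKM with RVC, against 4.36 and 6.49 FPKM when fresh frozen. The second library of each group was the higher, and the groups overlapped. Chrdl1 (ENSMUSG00000031283, chromosome X, 142068670 to 142177258) encodes chordin-like 1, which binds BMPs through cysteine-rich repeats. It measured 1.76, 4.47, 3.29 and 2.04 FPKM. Its highest value was 2.54 times its lowest, the widest spread of the 7 members, with both extremes in the RVC group.

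Pdgfra (ENSMUSG00000029231, chromosome 5, 75312953 to 75358876) encodes the PDGF receptor alpha that marks subepithelial and other stromal cells. It stood at 3.03 and 3.56 FPKM with RVC, against 2.35 and 3.92 FPKM when fresh frozen, and the fresh-frozen libraries enclosed the RVC ones. Grem1 was 1.66 to 1.97 times Pdgfra within a library. In bulk tissue, fewer cells of a type and less RNA per cell cannot be told apart.

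By mean level the order was Bmp2, Grem1, Bmp4, Pdgfra, Chrdl1, Bmp5 and Bmp7. The ranges over the 4 libraries were apart at 2 of the 6 steps, between Bmp2 and Grem1, with a ratio of means of 4.66, and between Bmp5 and Bmp7, with a ratio of 10.4. At the other 4 steps the ranges of neighbouring genes overlapped. Bmp4 nonetheless exceeded Pdgfra within each of the 4 libraries and Grem1 exceeded Bmp4 in 3 of 4, whereas Pdgfra exceeded Chrdl1 in 2 of 4. Chrdl1 exceeded Bmp5 within each of the 4 libraries, with a ratio of means of 1.68.

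**Figure D1:**
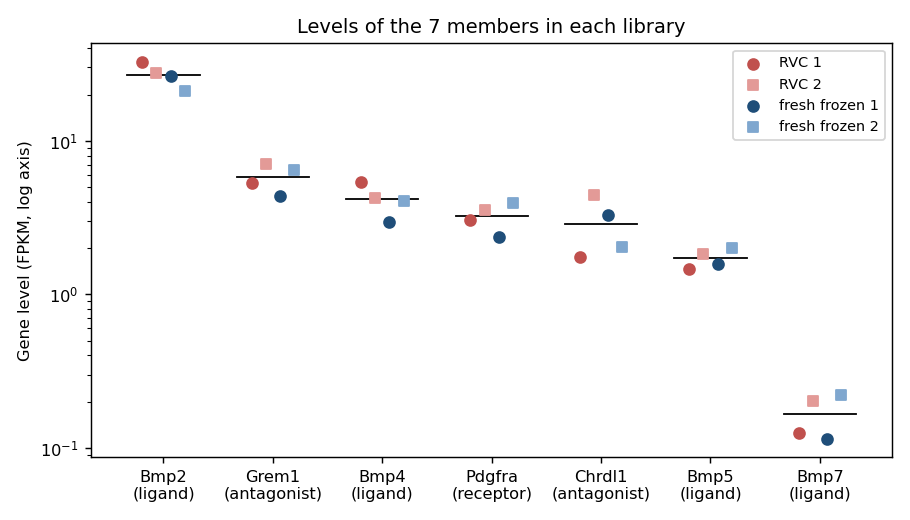
Level of each member in FPKM (vertical log axis), 1 point per library with RVC in red and fresh frozen in blue, and the mean over 4 libraries as a line. Bmp2, at 21.1 to 32.5 FPKM, lies above all other members and Bmp7, at 0.115 to 0.220 FPKM, below them.

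Ligands were then set against antagonists by summed level in each library. The ligands Bmp2, Bmp4, Bmp5 and Bmp7 summed to 39.5, 34.0, 31.1 and 27.3 FPKM. The antagonists Grem1 and Chrdl1 summed to 7.03, 11.5, 7.64 and 8.53 FPKM. The ligand sum thus exceeded the antagonist sum by 5.62, 2.96, 4.07 and 3.21 times. The log2 ratio of antagonists to ligands was -1.94 ± 0.41 (SD, n = 4), below 0 in 4 of 4 libraries, with a two-sided exact sign-flip permutation p of 0.125, the smallest that 4 libraries allow. Bmp2 carried 77.0% to 85.1% of the ligand sum and Grem1 57.0% to 76.1% of the antagonist sum.

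The direction of this contrast turned on Bmp2. With Bmp2 left out, a choice made after seeing the values, the remaining ligands summed to 4.63 to 6.99 FPKM and the antagonists exceeded them 1.01, 1.83, 1.65 and 1.36 times. The mean log2 ratio was then 0.51, with an exact sign-flip p of 0.125. Between the groups, the log2 ratio over all member ligands averaged -2.03 in RVC and -1.85 in fresh frozen, a difference of -0.17 with a two-sided exact permutation p of 1.0, where 2 libraries against 2 cannot give less than 0.333. RVC 1 and RVC 2 held the lowest and the highest ratio, and without RVC 1 the difference changed sign to 0.29.

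**Figure D2:**
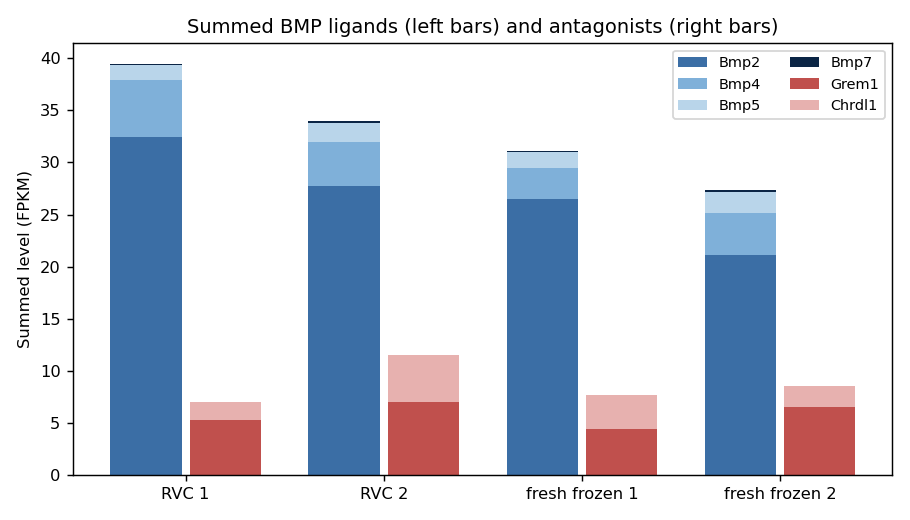
Summed FPKM per library (vertical axis from 0), with the ligands stacked in blue on the left and the antagonists stacked in red on the right. The ligand bars reach 27.3 to 39.5 FPKM and consist mostly of Bmp2, and the antagonist bars reach 7.03 to 11.5 FPKM.

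Wider lists, which included genes of mixed role, gave the opposite order, and how far it rested on single genes was not tested. The 14 listed ligands summed to 54.5, 46.3, 39.8 and 39.4 FPKM. The 16 listed antagonists and binding proteins summed to 60.0, 68.6, 52.2 and 51.5 FPKM. Of that antagonist sum, Nbl1 alone held 22.4, 22.9, 18.0 and 11.6 FPKM. Antagonists exceeded ligands 1.10 to 1.48 times, a mean log2 ratio of 0.37 with an exact sign-flip p of 0.125. After Bmp2 the most abundant ligand was Bmp3, a BMP known to oppose the signal of other BMPs, at 8.31 ± 1.66 FPKM (SD, n = 4), and Bmp4 was the third. The 3 most abundant genes of the antagonist list were not members. Nbl1, which encodes a relative of gremlin, stood at 18.7 ± 5.24 FPKM, the follistatin-like gene Fstl1 at 13.3 ± 1.90 and Twsg1, whose product can hinder or help BMPs, at 9.61 ± 0.854 (SD, n = 4 each). Noggin, a classic BMP antagonist encoded by Nog, was at 0.211 to 0.335 FPKM. Bmp10, Bmp15 and Sost were listed at 0 in all 4 libraries.

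The sums over transcripts hid differences in how reads had been divided. Cufflinks assigns reads of overlapping transcripts by likelihood, so shares of single transcripts are estimates. Bmp2 and Grem1 had 1 transcript each. For Bmp4, the 2064-nt coding transcript ENSMUST00000074077 carried 26.1%, 76.1%, 85.9% and 62.5% of the gene level, lowest by far in RVC 1. In RVC 1 the 1633-nt coding transcript ENSMUST00000100676 took 38.9%. A 258-nt transcript annotated as a retained intron, ENSMUST00000226759, took 35.0% in RVC 1 and 37.5% in fresh frozen 2, with lower confidence bounds of 0 in both. In GENCODE it lies opposite the noncoding gene Gm15222. The strand setting was not given, so whether the reads of both were told apart is unknown.

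Over coding transcripts alone, a choice made after seeing the data, Bmp4 stood at 3.51 and 3.93 FPKM with RVC, against 2.67 and 2.53 FPKM when fresh frozen. The groups stayed apart, and the RVC mean was 1.43 times the fresh-frozen mean, against 1.38 times for the full sum. The coding share of the Bmp4 level was 64.97%, 92.7%, 90.6% and 62.5%, low in RVC 1 and fresh frozen 2.

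Chrdl1 also had a transcript that came and went between libraries. Its 640-nt coding transcript ENSMUST00000207415 was listed at 2.22 FPKM in RVC 2 and 1.46 in fresh frozen 1, against 0.157 in fresh frozen 2 and near 0 in RVC 1, where the upper bound was 0.159. The lower bounds of 1.18 in RVC 2 and 0.565 in fresh frozen 1 lay above the upper bounds of 0.159 and 0.464 in the other libraries. Without this transcript, which was singled out after its values were seen, Chrdl1 measured 1.76, 2.24, 1.83 and 1.88 FPKM. The spread then fell to 1.28 times from lowest to highest, and the level of Chrdl1 was 1.93 ± 0.216 FPKM (SD, n = 4). Pdgfra was carried by the 6549-nt transcript ENSMUST00000000476, with 54.3%, 55.1%, 75.3% and 68.1% of the gene level, more in both fresh-frozen libraries than in either RVC one. That transcript measured 1.65, 1.96, 1.77 and 2.67 FPKM.

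**Figure D3:**
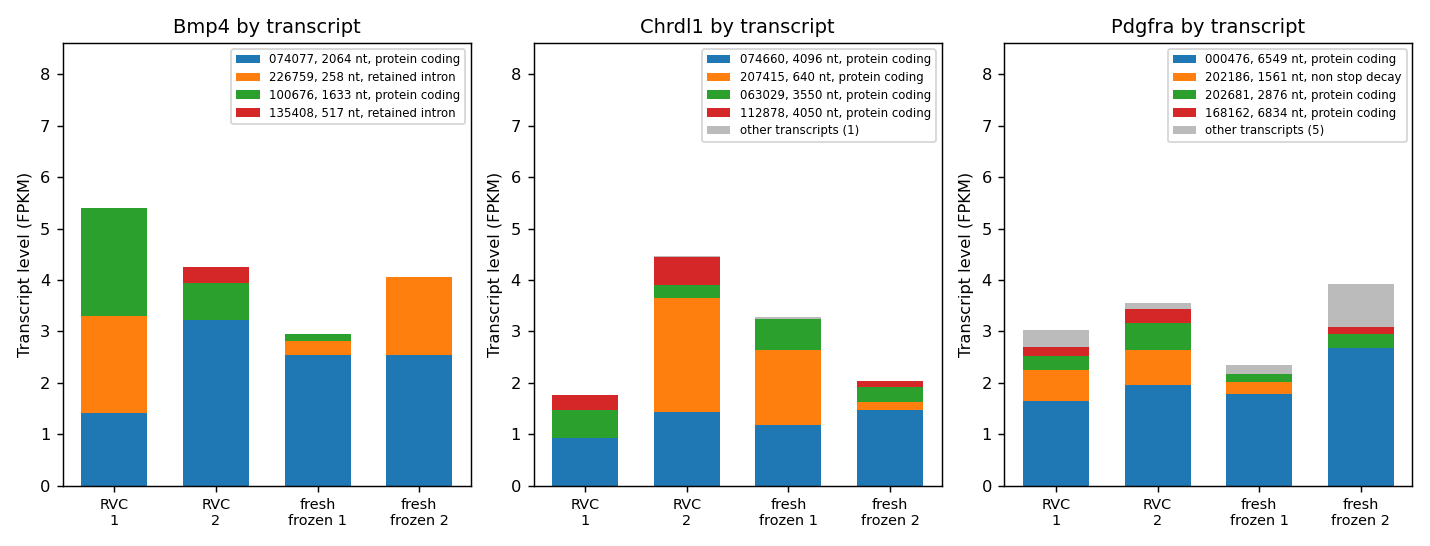
FPKM of single transcripts (vertical axis from 0) stacked for Bmp4, Chrdl1 and Pdgfra in each library, named by the last 6 digits of the transcript identifier with length and annotated type. The 640-nt Chrdl1 transcript adds 2.22 FPKM in RVC 2 and 1.46 in fresh frozen 1 and little in the other libraries.

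RVC and fresh-frozen libraries were compared gene by gene with limma on log2(scaled FPKM + 1), a scale that understates changes of genes near 1 FPKM, with Benjamini-Hochberg adjustment over 13771 genes. None of the 6 tested members passed an adjusted p of 0.05 (0 of 6), where 0.0363% of all genes did. At an unadjusted p under 0.05 there was 1 of 6 members, Bmp2, against 18.4% of all genes in either direction and 9.38% with RVC higher. The groups were apart, with RVC higher, for 2 of 6 members, Bmp2 and Bmp4, and this held for 26.1% of all genes. They were apart with RVC lower for 0 of 6 members and 26.8% of all genes. The log2 fold change was above 0 for 5 of 6 members and 51.0% of all genes. The median log2 fold change was 0.14 over the members and 0.0066 over all tested genes, and without RVC 2 the median of the members went to -0.0071. Bmp7, below 1 FPKM, was not tested.

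Bmp2 averaged 30.1 ± 3.36 FPKM with RVC, against 23.8 ± 3.85 when fresh frozen (SD, n = 2 each). This gave a log2 fold change of 0.34 (SE 0.14), and limma gave an adjusted p of 0.268. Bmp4 averaged 4.82 ± 0.821 FPKM with RVC, against 3.50 ± 0.777 when fresh frozen (SD, n = 2 each). This gave a log2 fold change of 0.38 (SE 0.18), and limma gave an adjusted p of 0.302. Neither passed the threshold. Without single libraries the log2 fold change of Bmp2 ran from 0.19 (without fresh frozen 2) to 0.48 (without fresh frozen 1). That of Bmp4 ran from 0.19 (without fresh frozen 1) to 0.56 (without fresh frozen 2). Bmp5 had a log2 fold change of -0.07 (SE 0.17), Pdgfra of 0.08 (SE 0.21), Grem1 of 0.17 (SE 0.20) and Chrdl1 of 0.11 (SE 0.32), with limma adjusted p-values between 0.673 and 0.876. For these genes the difference was smaller than its standard error, and its sign changed when single libraries were left out.

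Markers of some other cell types lay higher in RVC, though none passed the limma threshold. Groups apart with RVC higher held for 26.1% of all genes. The smallest limma adjusted p was 0.114 for smooth muscle, 0.105 for endothelial and 0.138 for macrophage markers. All 8 smooth muscle markers were higher in both RVC libraries than in either fresh-frozen one, at summed levels of 1113 and 1658 FPKM against 684.5 and 738. The 4 endothelial markers, 4 of them apart, likewise summed to 29.2 and 31.6 FPKM against 15.5 and 16.4. The 4 macrophage markers, 3 of them apart, summed to 29.7 and 26.9 FPKM against 19.8 and 17.2. Fibroblast markers, of which 2 of 8 were apart beside 26.1% of all genes, summed to 222, 264, 222 and 219 FPKM, a sum led by Dcn. Their median log2 fold change was 0.26, with 6 of 8 above 0, beside 51.0% of all genes. Epithelial markers summed to 3309, 3186, 3334 and 2670 FPKM, a sum led by Krt8, and 2 of 6 tested were apart with RVC higher. Median log2 fold changes were 0.23 for enteric neurons and glia, 0.054 for lymphoid and plasma cells, 0.016 for mesothelium and -0.10 for pacemaker cells. The median for smooth muscle was 0.77. No gene of these lists was at 0 in all libraries. The part of these cell types in the values of Bmp2 and Bmp4 was not tested.

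The deviations of the members from their own means over the libraries were then compared. Pdgfra, Grem1 and Bmp5 were above their means in RVC 2 and fresh frozen 2 and below them in RVC 1 and fresh frozen 1. Bmp2 ran from highest to lowest in the order RVC 1, RVC 2, fresh frozen 1 and fresh frozen 2. Chrdl1 was above its mean in RVC 2 and fresh frozen 1. Likeness was measured as the root-mean-square difference of these deviations over 4 libraries, among 46 other tested genes of the pathway lists. Closest to Pdgfra were Sfrp1 (0.0695), a secreted WNT inhibitor gene, Grem1 (0.0799) and Smo (0.105), and 2.07% of all tested genes were closer than the last. Closest to Grem1 were Pdgfra (0.0799), Fstl1 (0.0917) and Smad6 (0.116), with 1.99% of all genes closer. Closest to Bmp4 were Bmp3 (0.0616), Wnt2b (0.0747) and Hhip (0.0754), with 0.777% closer. With 4 libraries many genes share any such pattern.

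**Figure D4:**
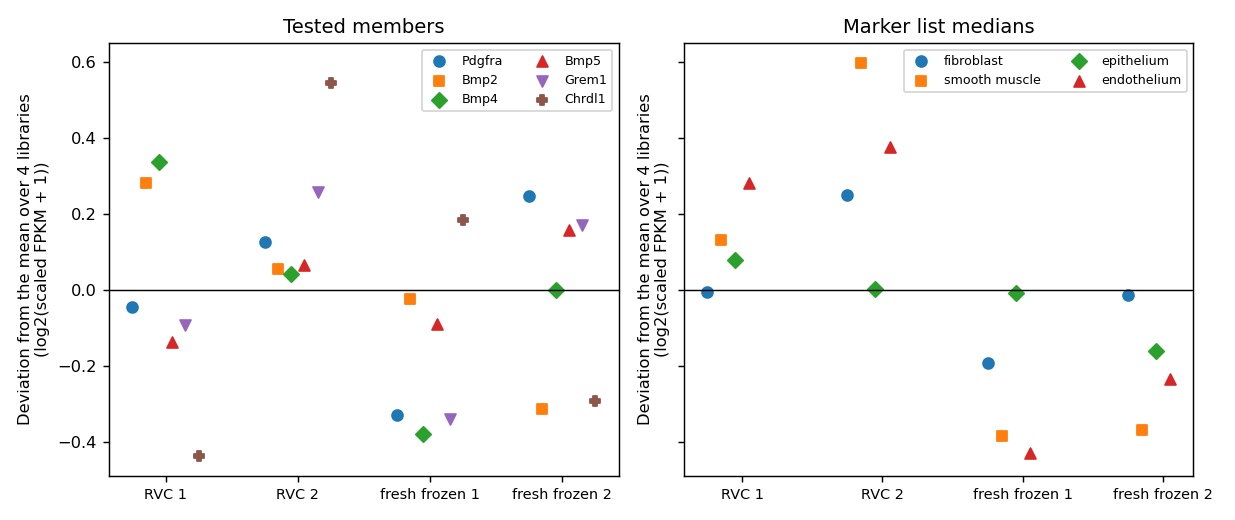
Deviation of log2(scaled FPKM + 1) from its mean over 4 libraries, for the 6 tested members (left) and as the median over 4 lists of cell type markers (right). Bmp2 and Bmp4 are highest in RVC 1, Grem1 and Chrdl1 in RVC 2 and Pdgfra and Bmp5 in fresh frozen 2. Bmp2, Bmp4 and the smooth muscle, endothelial and epithelial medians are above 0 in both RVC libraries only.

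The wider pathway was read from lists of ligands, antagonists, receptors and SMADs, and targets. The tested ligands included the members Bmp2, Bmp4 and Bmp5, and the tested antagonists Grem1 and Chrdl1. No gene of these 4 lists passed the limma threshold (0 of 6, 0 of 6, 0 of 11 and 0 of 6 tested). At an unadjusted p under 0.05 there were 2 ligands, 2 antagonists and 2 receptor genes higher in RVC and 1 receptor gene lower, and 0 targets in either direction, of 6, 6, 11 and 6 tested. Over all tested genes 9.38% passed that p with RVC higher and 18.4% in either direction. The ligands that passed it were Bmp8a and the member Bmp2. Median log2 fold changes were 0.33 for ligands, 0.18 for antagonists, 0.026 for receptors and SMADs and 0.059 for targets, beside 0.0066 over all tested genes.

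Among ligands the smallest p belonged to Bmp8a, which averaged 1.99 ± 0.459 FPKM with RVC, against 1.20 ± 0.149 when fresh frozen (SD, n = 2 each), and limma gave an adjusted p of 0.246. Of the antagonists, Nbl1 averaged 22.6 ± 0.362 FPKM with RVC, against 14.8 ± 4.54 when fresh frozen (SD, n = 2 each), and limma gave an adjusted p of 0.173. Its log2 fold change of 0.62 (SE 0.18) stands beside 0.17 for Grem1 and 0.11 for Chrdl1, and the difference between these genes was not tested. For Nbl1 it was 0.33 without fresh frozen 2 and 0.90 without fresh frozen 1.

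The 3 most abundant genes of the receptor and SMAD list serve signal reception. The type I receptor gene Bmpr1a stood at 18.4 ± 1.54 FPKM, Smad1 at 19.3 ± 1.31 and the common mediator Smad4 at 27.1 ± 1.47 (SD, n = 4 each). The receptor genes of smallest p were Eng and Acvrl1, both typical of endothelium, at log2 fold changes of 0.48 and 0.50 with limma adjusted p-values of 0.211 and 0.216. Their direction was that of the endothelial markers, and the part of that cell type was not tested. Of the 11 tested genes of this list, 5 were apart with RVC lower, beside 26.8% of all genes. Another 3 were apart with RVC higher, beside 26.1%. Bmpr1a and Smad4 were among the lower ones, at log2 fold changes of -0.19 and -0.11 with limma adjusted p-values of 0.355 and 0.571. Of the targets, Id1, an inhibitor of differentiation factors induced by BMPs, was the most abundant, at 133 ± 23.5 FPKM, followed by Id3 at 19.0 ± 2.82 and the inhibitory SMAD gene Smad7 at 17.5 ± 1.32 (SD, n = 4 each). Id1 measured 109.8, 138, 164 and 122 FPKM. It was lowest in RVC 1 and highest in fresh frozen 1, and the groups overlapped. Id4 had the smallest p of the targets, with a log2 fold change of 0.31 and a limma adjusted p of 0.306, followed by Smad7 at 0.15 and 0.498.

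**Figure D5:**
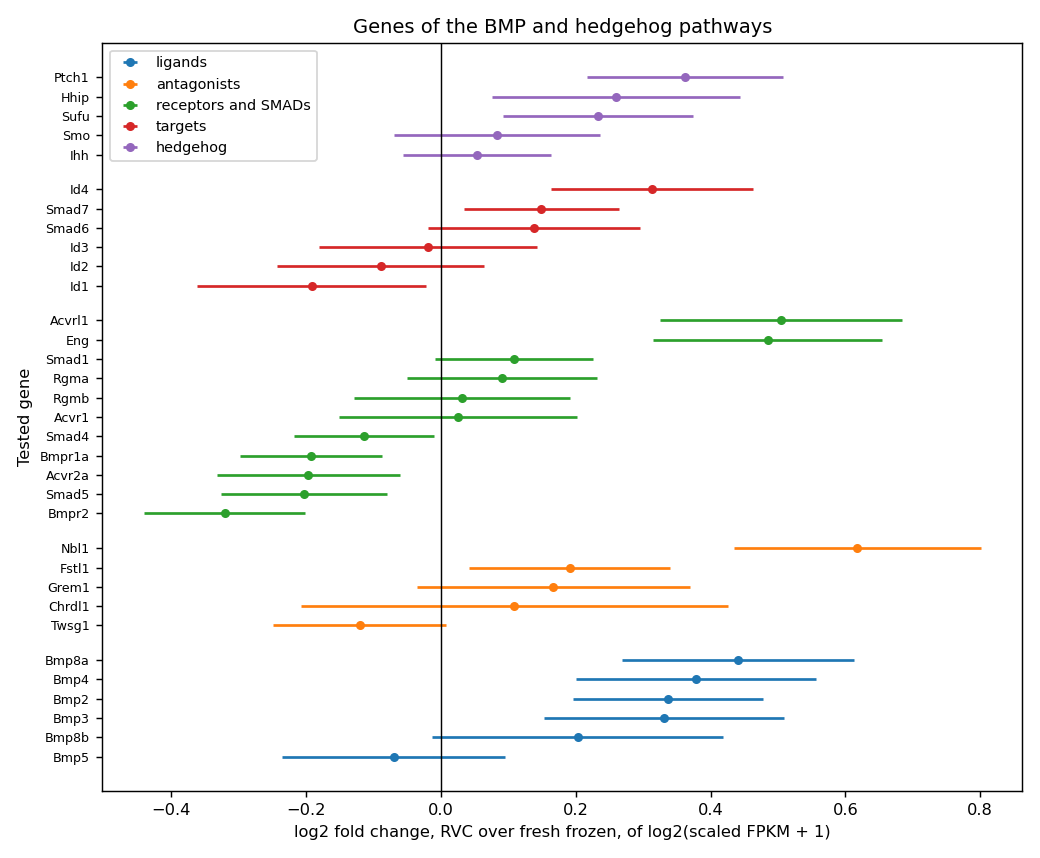
Log2 fold change of RVC over fresh frozen on the log2(scaled FPKM + 1) scale (horizontal axis) for tested genes of 5 pathway lists, with bars of 1 standard error from limma. None passed an adjusted p of 0.05, and of the genes drawn Nbl1 and Acvrl1 lie farthest to the right.

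Hedgehog ligands from the epithelium are known to act on the mesenchyme that makes BMPs. Ihh, the epithelial hedgehog ligand gene of the colon, stood at 14.5 ± 0.427 FPKM (SD, n = 4), whereas Shh was at 0.0451 FPKM or less. Its receptor and target gene Ptch1 measured 6.58, 6.40, 4.29 and 5.45 FPKM, with a log2 fold change of 0.36 (SE 0.15) and a limma adjusted p of 0.257. The transducer gene Smo averaged 3.72 ± 0.404 FPKM and Sufu, a negative regulator, 2.15 ± 0.307 (SD, n = 4 each). Of 5 tested hedgehog genes, 0 passed the threshold.

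Stromal cell genes gave the members their setting. Of the subepithelial list, 7 genes were tested and 0 passed, with F3 the most abundant at 44.2 ± 3.39 FPKM (SD, n = 4), a gene that epithelial cells also express. Wnt5a, a WNT ligand gene of subepithelial cells, averaged 1.15 ± 0.0162 FPKM with RVC, against 1.62 ± 0.390 when fresh frozen (SD, n = 2 each). This gave a log2 fold change of -0.28, and limma gave an adjusted p of 0.399. Of the list for stroma of the crypt base, 9 were tested and 0 passed. Its most abundant genes were Cd81 at 54.8 ± 6.31 FPKM, a surface protein gene of many cell types, Cd34 at 11.2 ± 2.14, which endothelium also expresses, and Ackr4 at 9.78 ± 1.30 (SD, n = 4 each). Dkk3 measured 4.01 ± 0.572 FPKM (SD, n = 4), close to the level of Bmp4. The R-spondin gene Rspo3, whose product sustains stem cells, was at 0.801 to 1.00 FPKM.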

How the data were processed

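RNA was extracted with TRIzol and columns, depleted of ribosomal RNA and sequenced as read pairs, per the labels' protocols. TopHat 2.1.1, Cufflinks 2.2.1 and the build GRCm39 were named in the submitters' processing notes. The annotation release and strand setting were not given in the sources used here. The deposited FPKM values, their confidence bounds, the coverage (a signal of reads per base) and transcript lengths were used as the authors gave them, per the file headers.

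Gene FPKM was the sum over transcripts of a gene identifier, and each member symbol had a single identifier. Scaled FPKM was divided by median-ratio factors of 0.992 to 1.01. Genes were tested at a mean of at least 1 scaled FPKM, a longest transcript of at least 300 nt and an OK status of all transcripts, with limma 3.58.1 in R 4.3.3 (mean-variance trend, two-sided, no covariate, pseudocount 1). The fit was also run on data simulated from its own fitted spreads, which cannot test it against batch or cell composition. Levels are deposited FPKM. Transcript types, strands and overlapping genes came from GENCODE vM39 and sequences from the GRCm39 genome. Antagonist to ligand ratios were tested by exact permutation. Alternatives were other pseudocounts, scalings, filters and transcript sums, no trend, a block on the sample number and each library left out.

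Named from each list were the 3 most abundant genes, the 2 of smallest p and any past the threshold, of which 1 gene is not reported here. Rspo3, Nog, Shh and the genes listed at 0 were chosen after their values were seen. Members and lists were chosen with earlier results of these data known. A stretch of chromosome 8 that holds Foxf1 and Foxl1 was not analysed here.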

Additional observations from a re-analysis of the deposited data

How the results depend on the processing

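Across all alternatives and left-out libraries, 0 members passed the adjusted threshold. The number of genes past it, 5, was 0 without a filter on low values (3531 at an unadjusted p under 0.05), 0 with transcripts of at least 300 nt only (2577) and 0 without a trend (2461). It was 14 at a mean of at least 5 FPKM and 112 with a replicate block on the sample number, and ran from 8 to 40 without single libraries (8 without RVC 2, 22 without fresh frozen 2, 29 without RVC 1 and 40 without fresh frozen 1). Where a group kept 1 library, it was assumed to vary like the other group. Numbers 1 and 2 in the labels were not shown to pair samples: the correlation of same-numbered deviations was -0.134. The block changed no call of a member. Over the 31 named genes, 19 log2 fold changes under an alternative had the other sign and 377 kept it, and none of these genes passed the threshold. Without single libraries, values ran from -0.24 to 0.15 for Ackr4 (sign changed without RVC 1 and without fresh frozen 1), from -0.20 to 0.051 for Bmp5 (RVC 1, fresh frozen 2), from -0.12 to 0.20 for Cd81 (RVC 2, fresh frozen 2) and from -0.38 to 0.60 for Chrdl1 (RVC 2, fresh frozen 2). They ran from -0.21 to 0.031 for F3 (fresh frozen 2), from -0.090 to 0.42 for Grem1 (RVC 2, fresh frozen 1), from -0.39 to 0.0037 for Id1 (fresh frozen 1) and from -0.22 to 0.18 for Id3 (RVC 1, fresh frozen 1). They ran from -0.21 to 0.37 for Pdgfra (RVC 2, fresh frozen 1) and from -0.075 to 0.24 for Smo (fresh frozen 1). With transcripts of at least 300 nt only, Id3 was at 0.0051, and over coding transcripts Pdgfra was at -0.069. The cause was not tested. The median log2 fold change of the members ran from -0.0071 to 0.277 without single libraries. The log2 ratio of antagonists to ligands, -1.94, turned positive with Bmp2 left out (0.51), with the longer lists (0.37) and as a difference of mean log2(FPKM + 1) (0.13), where each gene counts equally. Otherwise it ran from -2.12 to -1.90, and from -2.07 to -1.76 without single libraries. The group difference of the ratio ran from -0.64 to 0.29 without single libraries and was positive only without RVC 1. Over coding transcripts only, neighbouring levels were apart at 4 of 6 steps in place of 2, and Chrdl1 came before Pdgfra. With the most abundant transcript of each gene they were apart at 3 steps and Bmp5 came before Chrdl1, and without the 640-nt transcript of Chrdl1 they were apart at 3. The coding-only, Bmp2 and Chrdl1 alternatives were chosen after seeing the data. FPKM values carry no fragment numbers, so depth limits Bmp7 and single transcripts by an unknown amount beyond the bounds given.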
